A study of Mus musculus with 2 samples.

Results

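The transcripts described here come from 446 new intergenic loci of the mouse adrenal gland, stretches of the genome outside annotated genes that gave at least 1 long read in each of 2 libraries. They were chosen among the transcript models that the annotation program TALON classed as intergenic. The new genes of each library were merged where their extents overlapped on the same strand, which gave 2679 loci, and 446 of these (16.65%) had a read in both libraries. The loci were thus chosen by their reads in each library, and read counts are given as a description, with no test. A locus was counted with all models of its new genes, whatever class each model had. The tissue came from male mice at 2 months of age, and their strain was B6CASTF1/J, the first-generation cross of B6 and CAST. Both libraries form a single group with no treatment. The labels do not settle whether the glands came from separate animals, so the spread between the libraries may be technical. The labelled tissue carried its defining markers, since all 15 adrenal cortex genes and all 10 chromaffin cell genes looked up were read in both libraries. Fat markers were also present, with 4 of 4 genes read and a summed level of 4950 CPM in replicate 1 and 1764 CPM in replicate 2, and the part of this difference in the results was not tested.

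Most of the genome outside genes is transcribed rarely, and the transcripts that do arise there are of several known kinds. Long intergenic noncoding RNAs are spliced, polyadenylated transcripts of their own genes, usually at low levels and often restricted to 1 tissue. Many active promoters also fire in the opposite direction, and give divergent transcripts that start close to the start of the annotated gene. Other transcripts continue past the annotated 3′ end of a gene, where a more distal polyadenylation site lengthens its last exon, or arise from pseudogenes and repeats. A long read can cover a molecule from end to end, and where it does, it gives the exon structure of such a transcript directly.

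The reads are few. Reads on annotated genes numbered 800029 in replicate 1 and 638310 in replicate 2, and levels are given as CPM, in which reads on annotated genes are scaled to the same total in each library. A single read was worth 1.25 CPM in replicate 1 and 1.567 CPM in replicate 2, and where no read was found up to 3 remain possible, equal to 3.75 and 4.7 CPM. Intervals and limits of this kind cover counting error only. The 446 loci held 2094 reads in replicate 1 and 1771 in replicate 2, which was 51.9% and 62.16% of all reads on new intergenic genes. Against the reads on annotated genes they amounted to 0.2617% and 0.2775%.

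At 52 of the loci the 5′ end lay inside the promoter window of a RefSeq gene, defined as 250 bases before and 50 bases after a start, with 1 start taken for each gene. At 41 of them the window belonged to a gene on the opposite strand, at 18 to a gene on the same strand, and at 7 to both. The windows of the 6 opposite-strand genes whose new locus held at least 10 reads are shown. The 5′ end of the new locus, as set by its models, lies inside each of them. How model ends were placed relative to annotated starts was not stated in the labels or headers, so these ends need not be where transcription began. The genes were chosen after the reads of their loci were seen. Sequences are from RefSeq on the build GRCm38.p6, written 5′ to 3′ on the strand of the annotated gene. Capitals mark the bases that lie inside the extent of the new locus, which is transcribed from the other strand.
Tbc1d22a promoter window, chr15:86214209-86214508, strand +: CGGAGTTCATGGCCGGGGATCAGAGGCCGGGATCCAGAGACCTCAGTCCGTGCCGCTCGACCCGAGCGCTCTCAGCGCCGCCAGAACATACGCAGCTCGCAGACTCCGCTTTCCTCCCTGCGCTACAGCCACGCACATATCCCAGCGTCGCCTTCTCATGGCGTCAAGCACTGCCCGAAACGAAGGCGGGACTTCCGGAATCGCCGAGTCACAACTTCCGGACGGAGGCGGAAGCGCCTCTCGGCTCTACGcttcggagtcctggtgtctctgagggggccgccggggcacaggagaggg
Qser1 promoter window, chr2:104816647-104816946, strand minus: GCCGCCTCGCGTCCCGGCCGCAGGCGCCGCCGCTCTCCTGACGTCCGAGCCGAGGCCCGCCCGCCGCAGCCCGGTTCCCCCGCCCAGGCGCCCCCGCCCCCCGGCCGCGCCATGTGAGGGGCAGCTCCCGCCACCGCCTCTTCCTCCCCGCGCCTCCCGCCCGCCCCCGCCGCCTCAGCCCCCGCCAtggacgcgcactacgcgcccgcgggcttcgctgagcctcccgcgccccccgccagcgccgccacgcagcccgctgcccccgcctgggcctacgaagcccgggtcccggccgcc
Spin1 promoter window, chr13:51100630-51100929, strand +: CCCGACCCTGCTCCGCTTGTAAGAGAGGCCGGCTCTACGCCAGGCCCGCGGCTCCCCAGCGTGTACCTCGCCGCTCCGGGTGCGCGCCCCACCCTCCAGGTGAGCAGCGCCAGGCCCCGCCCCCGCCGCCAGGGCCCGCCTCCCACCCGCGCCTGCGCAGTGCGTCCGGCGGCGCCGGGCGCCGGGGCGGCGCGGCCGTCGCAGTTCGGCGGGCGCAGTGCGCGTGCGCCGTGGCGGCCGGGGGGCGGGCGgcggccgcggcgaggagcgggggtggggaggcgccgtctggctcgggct
Med26 promoter window, chr8:72548261-72548560, strand minus: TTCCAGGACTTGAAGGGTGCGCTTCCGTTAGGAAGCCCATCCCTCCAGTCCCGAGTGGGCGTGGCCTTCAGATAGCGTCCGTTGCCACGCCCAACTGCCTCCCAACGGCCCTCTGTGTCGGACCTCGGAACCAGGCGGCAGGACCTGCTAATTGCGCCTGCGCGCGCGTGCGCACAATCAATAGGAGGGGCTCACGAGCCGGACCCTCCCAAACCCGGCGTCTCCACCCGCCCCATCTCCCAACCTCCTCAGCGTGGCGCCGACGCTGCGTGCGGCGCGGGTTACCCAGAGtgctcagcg
Polr3k promoter window, chr2:181864110-181864409, strand +: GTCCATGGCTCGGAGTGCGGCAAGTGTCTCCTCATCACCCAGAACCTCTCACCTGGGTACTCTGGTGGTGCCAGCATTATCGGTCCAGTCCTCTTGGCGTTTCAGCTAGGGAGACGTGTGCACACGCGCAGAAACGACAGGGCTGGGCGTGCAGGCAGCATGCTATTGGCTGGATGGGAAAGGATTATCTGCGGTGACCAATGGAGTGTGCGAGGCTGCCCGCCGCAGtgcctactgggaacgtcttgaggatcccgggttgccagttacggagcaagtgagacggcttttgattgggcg
Selenoi promoter window, chr5:30232331-30232630, strand +: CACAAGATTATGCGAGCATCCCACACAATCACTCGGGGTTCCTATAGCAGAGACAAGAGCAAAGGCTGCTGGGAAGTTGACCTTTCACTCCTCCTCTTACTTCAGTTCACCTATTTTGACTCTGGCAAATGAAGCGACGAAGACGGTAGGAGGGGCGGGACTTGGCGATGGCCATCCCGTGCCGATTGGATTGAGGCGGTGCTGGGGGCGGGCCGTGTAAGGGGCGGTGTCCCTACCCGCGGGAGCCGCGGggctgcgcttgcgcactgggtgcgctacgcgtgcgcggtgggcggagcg

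The new locus opposite Tbc1d22a had 22 and 10 reads in replicates 1 and 2, and its 5′ end was the start base of the window printed above. RefSeq begins the gene itself further upstream, so that locus and gene overlap by 49 bases. Its other end touched Gm22818, a small nuclear RNA gene. Opposite Qser1 the locus had 9 and 3 reads and up to 3 exons, and it overlapped the RefSeq gene 2310047K21Rik on its own strand over 9841 bases. It also overlapped the longest extent of Qser1, on the other strand, over 1921 bases. The locus opposite Spin1, which encodes a chromatin reader protein, had 7 and 4 reads and overlapped the RefSeq gene 9430083A17Rik on its own strand over 2989 bases. RefSeq also begins Spin1 further upstream than the window shown, and the whole extent of Spin1 overlaps the locus by 2947 bases. Opposite Med26, a subunit of the Mediator complex, there were 3 and 8 reads, and opposite Polr3k, a subunit of RNA polymerase III, 2 and 9 reads. The locus opposite Selenoi, a phospholipid synthesis enzyme, had 7 and 3 reads, of which 6 and 3 were spliced. Its models that reached the window held 3 of the 7 reads in replicate 1 and 2 of the 3 in replicate 2. In the windows of Tbc1d22a, Spin1 and Selenoi printed above, the capitals end on the start base that defines the window. In that of Med26 they run on past it, where locus and gene overlap by 41 bases, and in those of Qser1 and Polr3k they stop 64 and 23 bases before it. CCAAT occurred in the windows of Selenoi and Polr3k and GGGCGG in those of Qser1, Spin1, Med26 and Selenoi, while TATAAA was in none of the 6.

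The windows of opposite-strand genes were rich in CG dinucleotides, with a median of 29 per window over 42 windows. The median was 7 over all 32851 RefSeq windows and 20 over the 12657 windows of genes read in both libraries. The 18 windows of same-strand genes had a median of 16. The motif GGGCGG, searched on both strands, occurred in 27 of the 42 opposite-strand windows (64.29%), in 35.66% of all windows and in 62.46% of the windows of genes read in both libraries. CCAAT occurred in 21 of 42, against 37.41% and 37.24%. TATAAA occurred in 1 of 42 windows, against 13.62% of all windows and 7.024% of those of genes read in both libraries. These are counts of letters in a window and were not tested.

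Where the loci lie was described against the gene extents of GENCODE M21 on the same build, with the distance as the gap to the nearest annotated gene on either strand. The median distance was 1827 bp. The nearest gene was protein-coding for 293 of the 446 loci, and 217 loci were on the plus strand and 229 on the minus strand. A locus was called downstream or upstream where it was on the strand of its neighbour, beyond the 3′ or the 5′ end. It was called divergent where it was on the other strand beyond the 5′ end of its neighbour, and convergent where it was on the other strand beyond the 3′ end. Separated by a gap, 89 loci were downstream of their neighbour on the same strand at a median of 4378 bp, and 82 were upstream at a median of 3966 bp. A further 61 were divergent at a median of 6507 bp and 90 were convergent at a median of 3594 bp. The order of these classes changed with the read minimum and the gene bounds. At 5 reads or more in each library convergent loci made up 14% and divergent loci 18%, and with the bounds in the deposited annotation divergent and upstream loci were each 17.04%.

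**Figure D1:**
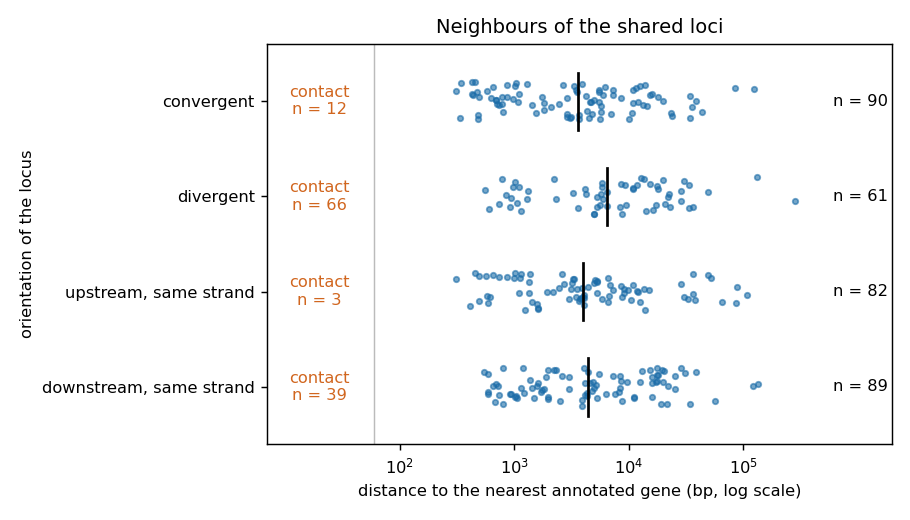
Distance of each shared locus from the nearest annotated gene (bp, log scale) by orientation, with 1 point per locus and a black bar at the median. The counts at the left are loci that touch the gene by 1 base, 66 of which are divergent, and no point lies between contact and 309 bp.

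Many loci touched a gene. Of the 446 loci, 120 (26.91%, Wilson 95% interval 23.0 to 31.21%) shared exactly 1 base with an annotated gene, and 3 shared more. No locus had a gap between 1 and 308 bases, and the smallest gap seen was 309 bp. Contact was not spread evenly over the orientations. In 66 of the 120 the 5′ end of the locus sat on the 5′ end base of a gene on the other strand, and in 39 it sat on the 3′ end base of a gene on the same strand. Only 12 contacts were convergent and 3 were upstream on the same strand. How model ends were placed relative to annotated ends was not stated in the labels or headers. The deposited annotation lists other bounds than GENCODE M21 for 28.96% of genes, and with those bounds 17.49% of the loci were in contact and 8.296% overlapped a gene. Contact was then less frequent than the downstream class at 20.18%, whereas with GENCODE M21 it was the most frequent class over the 446 loci, and level with upstream loci at 24% where each library had 5 reads or more. Against protein-coding genes alone 20.18% were in contact and 20.85% upstream. Contact was also found at 454 of the 2233 loci read in 1 library (20.33%).

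Genes in divergent contact were mostly protein-coding and well expressed. Of the 66 neighbours 60 were protein-coding and 56 were read in both libraries, and their median level was 23.4 CPM. Neighbours across a gap had medians of 1.875 CPM (downstream loci), 3.679 CPM (upstream), 2.817 CPM (divergent) and 3.129 CPM (convergent). Among the 66 loci themselves 19 had a multi-exon model, and together they held 193 and 140 reads. The locus beside Prep, a prolyl peptidase gene, had 24 and 10 reads, and the one beside Bicra, which encodes a chromatin remodelling subunit, 17 and 5. Both had more reads in replicate 1. The contacts downstream of a gene held 198 and 160 reads and were rarely spliced, with a multi-exon model at 2 of 39.

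Genes of adrenal function stood among the neighbours in downstream contact. The locus that begins on the 3′ end of Cyp11b2, the aldosterone synthase gene of the outer cortex, lay at chr15:74848912-74851010 and had 29 reads in each library. This gave 36.25 and 45.4 CPM, a mean of 40.8 ± 6.49 CPM (SD, n = 2), beside 1042 and 1345 reads on Cyp11b2 itself. Its most-read models, of 2099 and 2098 nt, had a single exon and ends within 1 nt of each other between the libraries. RefSeq extends Cyp11b2 over 393 bases of this locus. The locus at the 3′ end of Fdx1, the ferredoxin that passes electrons to mitochondrial steroidogenic enzymes, had 5 and 3 reads beside 924 and 681 on the gene. In the medulla, the locus at the 3′ end of Dbh, which makes noradrenaline from dopamine, had 3 and 3 reads beside 283 and 215. The one at the 3′ end of Th, which encodes tyrosine hydroxylase, had 4 and 2 reads beside 2625 and 2119. At Dbh and Th only the models of replicate 1 touched the gene. Those of replicate 2 began beyond it, at base 27183650 near Dbh and at base 142891136 near Th. All 4 loci were on the strand of the gene and had single-exon models, and the last 3 had at most 5 reads in either library.

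The RefSeq annotation was compared with the loci as a second catalogue of genes. A RefSeq gene lay on the same strand at 107 loci, on the other strand only at 58, and on a strand that the table does not give at 16. The other 265 loci (59.42%) overlapped no RefSeq gene, and they held 1371 and 1209 reads, the larger part of the total. The same-strand matches fell into 4 kinds. At 46 loci the match was a protein-coding gene that GENCODE M21 also lists, with shorter bounds there. In 38 of these it was the nearest annotated gene, and 28 loci lay downstream of their nearest gene. At 34 loci it was a lncRNA gene whose name is not in GENCODE M21, at 20 a pseudogene and at 7 a protein-coding gene absent by name from GENCODE M21.

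The matches to lncRNA genes were mostly spliced. A multi-exon model was found at 25 of the 34. It was found at 2 of the 46 loci that overlapped the RefSeq extent of a protein-coding gene in both catalogues, and at 0 of the 20 that matched a pseudogene. The 34 loci held only 104 and 68 reads. Among the protein-coding names, chosen after their values were seen, AB010352 matched a locus of 4 exons with 4 and 4 reads, and Gm38396 one of 4 exons with 3 and 3 reads. Zfp33b, a zinc finger protein gene, matched a locus of 4 exons with 2 and 3 reads, and Gm52720 one of 2 exons with 1 and 4 reads. No locus overlapped any of the 1005 miRNA hairpins in the RefSeq table.

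Spliced structure was the exception. A model with more than 1 exon was found at 94 of the 446 loci (21.08%, Wilson 95% interval 17.55 to 25.1%), of which 59 had 2 exons at most, 21 had 3 and 14 had 4 or more. Annotated lincRNA genes read in both libraries, 209 in number, had a multi-exon model in 77.03% of cases. Their median level was 3.442 CPM, against 2.192 CPM for the new loci, and the length of their most-read model had a median of 1510 nt against 707.5 nt. Loci read in 1 library had a multi-exon model in 13.48% of cases, but 88.0% of them had a single read, so the shares are not like for like. Among the 42 of them with at least 4 reads, 9 had a multi-exon model (21.43%). Of the 149 shared loci with at least 2 reads in each library, 43 had one (28.86%). Reads of multi-exon models made up 261 of 2094 reads (12.46%) in replicate 1 and 271 of 1771 (15.3%) in replicate 2. Where an intron of at least 100 bp was required, the shares were 8.644% and 10.16%.

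The same introns were found in both libraries at most spliced loci. A multi-exon model was present in both libraries at 72 of the 94 loci, and at 52 of these the libraries shared an exact chain of introns, with 191 and 214 reads on shared chains. The longest intron had a median of 3304 bp over the 90 loci with an intron of at least 100 bp. At the other 4 loci the gap between exons was 57 to 77 bp. Those 4 included the most-read spliced locus, on chromosome Y, and held 74 and 84 of the spliced reads. The chromosome Y locus alone held 71 and 77 of the reads on shared chains.

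The highest exon count was at a locus near the lincRNA gene Gm30551 at chr13:103495113-103576841, with 8 exons but only 3 and 1 reads. Near Cib4 a locus of up to 5 exons had 8 and 8 reads, of which 4 and 5 were spliced. A locus that overlaps the 3′ part of Haus1, a mitotic spindle gene, on the other strand also reached 5 exons, with 4 and 5 reads. It also overlapped the RefSeq lncRNA gene 5730552O08Rik, whose strand the RefSeq annotation used does not give, over 3352 bases. The 5-exon loci near n-R5s157 and Las1l had 1 read in each library. The longest spliced or unspliced model, of 8027 nt, came from 1 read at chr10:79314318-79322344 in replicate 2, in a locus with 2 reads in replicate 1.

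The share of spliced reads at a locus was compared between the libraries. With 1 library on each side the test takes reads as independent, so its p-values and calls cover counting error only. Fisher's exact test, two-sided, compared reads of multi-exon and single-exon models for 4365 annotated genes and new loci with at least 20 reads in each library and both kinds of read. Calls needed a Benjamini-Hochberg adjusted p below 0.05 together with a change of 10 percentage points or more, and 11 of the 4365 were called (0.252%). Of the 5 shared loci tested 0 were called, and 0 had an unadjusted p under 0.05, which does not show that their shares are alike. At the chromosome Y locus 71 of 81 reads in replicate 1 (87.65%) and 78 of 88 in replicate 2 (88.64%) were of multi-exon models. The p was 1 before adjustment (exact test), and the gap between these exons was at most 77 bp. At chr11:88890250-88896412 the values were 18 of 20 and 20 of 24 (p = 0.673, exact test), and at the chromosome X locus near Btbd35f1 they were 19 of 32 and 33 of 61 (p = 0.666, exact test).

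The loci differed widely in read number. The 12 most-read loci held 29.56% of the reads of all 446 in replicate 1 and 36.65% in replicate 2. At the other end 140 loci (31.39%) had exactly 1 read in each library, and 238 had 3 reads or fewer in sum. At least 2 reads in each library were found at 149 loci and at least 5 at 50.

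**Figure D2:**
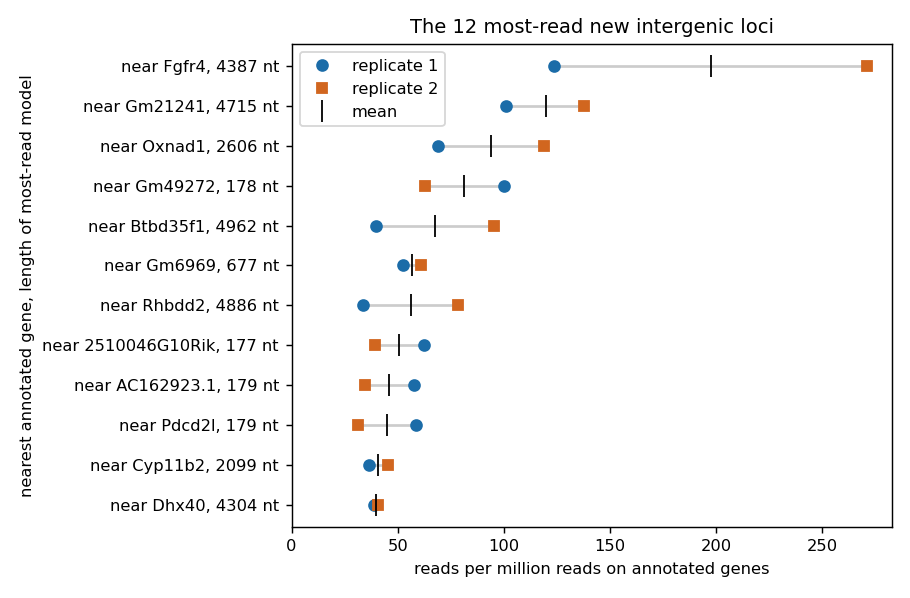
Level of the 12 most-read loci (CPM of reads on annotated genes) in each library, named by the nearest annotated gene and the length of the most-read model, with a black bar at the mean of both libraries. Loci with models of 177 to 179 nt are lower in replicate 2, and the loci near Fgfr4, Btbd35f1 and Rhbdd2 are higher there.

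The highest locus, at chr13:55184765-55189155 on the plus strand, had 99 reads in replicate 1 and 173 in replicate 2, a mean of 197 ± 104 CPM (SD, n = 2). Its nearest gene is Fgfr4, a fibroblast growth factor receptor, which ends 16006 bp upstream and had only 21 and 33 reads. The new locus was thus read more often than its annotated neighbour in both libraries. Its models differed between the libraries. In replicate 2 a single-exon model of 4387 nt held 172 of the 173 reads. In replicate 1 the same stretch was covered by 2 single-exon models that met at base 55184918, 1 of 154 nt with 75 reads and 1 of 4238 nt with 23 reads. The locus near Rhbdd2 at chr5:135624006-135628898 was split in a like manner, though its models did not meet, with a 159-nt model of 19 reads and a 3899-nt model of 7 reads in replicate 1, and a 4886-nt model of 47 reads in replicate 2. Most-read models were within 10% in length between the libraries at 242 of the 446 loci and over 2-fold apart at 89. The ends of single reads are not used here, so the length of a single-exon locus is that of its model and not of its molecules.

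Next in level was the locus on chromosome Y at chrY:43918755-43923547, minus strand, with 81 and 88 reads and 119.6 ± 25.9 CPM. It was 28615 bp from the pseudogene Gm21241, which was not read. Its main model of 4715 nt had 2 exons with the same gap of 77 bp between them in both libraries. No read of this locus had an intron of at least 100 bp. The locus at chr14:32115639-32118247 lay 12437 bp downstream of Oxnad1 and had 55 and 76 reads, all of 1 single-exon model per library, of 2604 and 2606 nt. At chrX:32502587-32507554, 52501 bp upstream of Btbd35f1, 32 and 61 reads fell on 10 models whose ends lay within 6 nt of each other between the libraries, which shared 4 intron chains. A second locus of the same extent, 4968 bp, lay at chrX:32224106-32229073 upstream of Btbd35f2 and had 3 and 2 reads. The locus near Dhx40, an RNA helicase gene, at chr11:86811826-86816129 had 31 and 26 reads and 39.7 ± 1.40 CPM. Its CPM differed least between the libraries among the 12. Here the single model of 4304 nt was in replicate 1, and replicate 2 had models of 1989 and 2315 nt that met at base 86813815.

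In contact with the pseudogene Gm6969, the locus at chr12:24637993-24638669 had 42 and 39 reads, beside 27 and 3 on Gm6969 itself. RefSeq assigns the whole locus, 677 bases, to Gm6969. The model had 677 nt in replicate 1 and 131 nt in replicate 2, the shorter inside the longer.

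Other well-read loci lay at every orientation. The locus at chr7:28256227-28261405, divergent to Eid2 at 6476 bp, had 28 and 26 reads, on a model of 5049 nt in replicate 1 and on models of 2823 and 280 nt in replicate 2. Near Xpo6, a nuclear export receptor gene, a 171-nt locus in convergent orientation at 1821 bp had 37 and 16 reads. The locus convergent to Gid8 at 658 bp had 22 and 13 reads and overlapped the RefSeq gene Gm30455. Nearest to a gene without touching it were loci at 309 bp from Gm45184, 311 bp from Hs3st1 and 338 bp from Mfsd6l, none with more than 3 reads in either library.

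Lengths ranged widely, with 1 narrow peak. Over the 446 loci the most-read model had a median length of 707.5 nt, with quartiles of 179.2 and 2004 nt. This model was taken among both libraries, with ties going to the longer, and 140 loci had exactly 1 read in each library. With models of replicate 1 alone the median was 522.5 nt, and with those of replicate 2 alone 642 nt. The median was 1102 nt at loci with at least 2 reads in each library and 1624 nt at those with at least 5. Models of 170 to 185 nt made up 72 loci (16.14%), and all 72 had a single exon. The same length class made up 334 of the 2233 loci read in 1 library (14.96%). The 5′ and the 3′ end of the most-read models both lay within 10 nt of each other between the libraries at 62 of the 72 and at 110 of the other 280 single-exon loci. Short models leave less room for ends to differ, so these counts are not like for like. The median difference at the 3′ end was 1 nt in the 72 and 0.5 nt in the 280. Only 2 of the 72 touched or overlapped a gene, and their median distance of 6802 bp was above the 1827 bp of all loci. Their neighbours were ordinary, with 44 of 72 protein-coding. Their sequence was not analysed here.

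**Figure D3:**
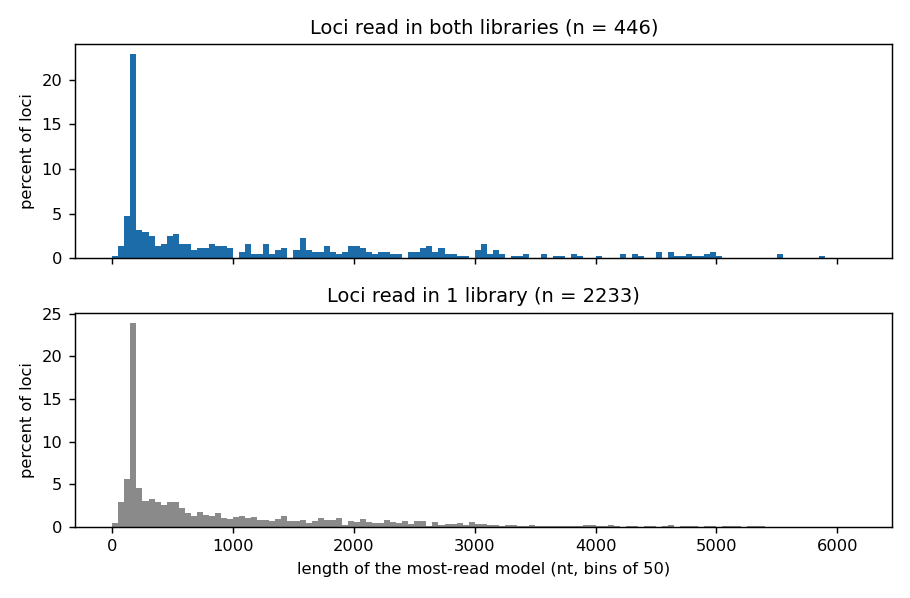
Length of the most-read model of each locus in bins of 50 nt, as a percent of loci, for loci read in both libraries and in 1 library. Both panels have a single tall bar from 150 to 200 nt, which includes the 72 shared loci of 170 to 185 nt.

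Among the short loci, chr15:103619063-103619240 had 80 and 40 reads and 81.3 ± 26.4 CPM, 30552 bp from the lincRNA gene Gm49272, which was not read. Its model had 178 nt in replicate 1 and 121 nt in replicate 2, with the same 3′ end. The locus at chr7:126643199-126643375 had 50 and 25 reads, and the one at chr17:74140821-74140999 had 46 and 22. At chr7:34182937-34183116, 1383 bp downstream of Pdcd2l, 47 and 20 reads were found, and at chr2:50017465-50017639, 48790 bp from Lypd6, 42 and 16. In the last 4 of these 5 loci the ends differed by at most 1 nt between the libraries. Each of the 5 had fewer reads in replicate 2. The locus farthest from any gene, 283802 bp from the lincRNA gene AA545190, also had a short model, of 169 nt, with 1 and 2 reads.

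Reads were also compared between the libraries. The ratio of replicate 2 to replicate 1 was taken on TMM-scaled CPM with 1 CPM added, for loci with at least 20 reads in sum, and 36 loci had that many. Past 2-fold were 8 of the 36, of which 3 favoured replicate 1 and 5 favoured replicate 2. Of 8063 annotated genes with as many reads, 6.68% were past 2-fold, 4.02% towards replicate 1 and 2.67% towards replicate 2. With DESeq2 size factors instead, 11 loci were past 2-fold, 8 towards replicate 1 and 3 towards replicate 2. That scaling lowered the log2 ratios slightly, so that loci close to the 2-fold limit crossed it, such as that near Fgfr4 (1.03 to 0.97) and that beside Prep (-0.98 to -1.04). The direction of these loci did not change. Because the reads chose the loci, these ratios carry no test.

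All 9 loci of 170 to 185 nt with at least 20 reads were lower in replicate 2, with log2 ratios from -1.85 to -0.38 and a median of -0.81. The 9 annotated genes in the same length class with as many reads had a median of -0.76. Loci with a most-read model of 4000 nt or more went the other way, with a median of 0.32 over 8 loci and a range from -0.54 to 1.14, beside 0.19 over 1579 annotated genes of that length. The class of a locus was set by the model with most reads among both libraries, so the library with more reads could set it. The loci near Fgfr4 and Rhbdd2 took their length from replicate 2. Those near Dhx40 and Eid2 took theirs from replicate 1. Length class and ratio were thus not independent. Summed over all members of a class, reads fell from 512 in replicate 1 to 264 in replicate 2 at 170 to 185 nt, a log2 ratio of CPM of -0.63. Ratios of sums use CPM without TMM scaling or the added 1 CPM, so they are not on the scale of the ratios of single loci. The 9 well-read loci held 351 and 160 of these reads, and the other 63 had 161 and 104, a log2 ratio of -0.30. By read number 37 of the 72 had more reads in replicate 1, 8 had more in replicate 2 and 27 had equal reads. Equal reads give a higher CPM in replicate 2, where a read is worth more. By CPM 36 were thus higher in replicate 1 and 36 in replicate 2, a split that depends on the ties. At 4000 nt or more the reads were 394 and 509, a log2 ratio of 0.70. The 8 well-read loci held 332 and 453 of them, and the other 19 had 62 and 56, a log2 ratio of 0.18. Annotated genes of the same classes had -0.68 and 0.22. The classes between did not run in parallel. In the next class, above 185 and below 500 nt, the new loci had a log2 ratio of -0.07 and annotated genes -0.75, and from 500 to below 1000 nt the values were -0.18 and -0.60. Under 170 nt they were -0.18 and 0.03. The part of transcript length in the ratio of any locus was not tested.

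**Figure D4:**
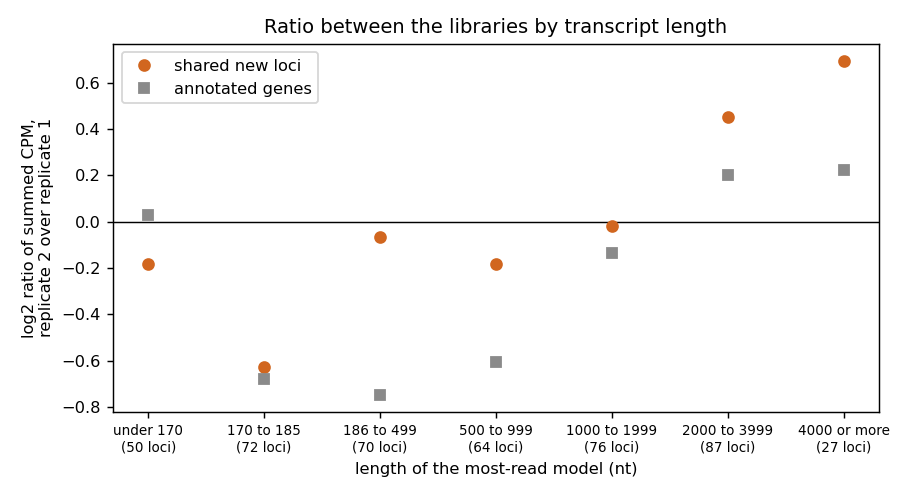
Log2 ratio of summed CPM, replicate 2 over replicate 1, by length class of the most-read model, for the shared new loci (circles) and annotated genes (squares). The new loci run from -0.63 at 170 to 185 nt to 0.70 at 4000 nt or more, and annotated genes from -0.68 to 0.22 in the same classes, but they part from each other in the classes above 185 and below 1000 nt. The length class of a new locus comes from the model with most reads among both libraries, so it is not independent of the ratio.

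Single loci with the widest ratios were of mixed kind. A 176-nt locus 10939 bp from Fblim1, at chr4:141564948-141565123, had 19 and 4 reads (log2 ratio -1.85). The locus in contact with Bicra had 17 and 5 (-1.42), and the one near Lypd6 had a log2 ratio of -1.13. Higher in replicate 2 were the locus 491 bp upstream of Rtl1, an imprinted gene of retrotransposon origin, with 6 and 16 reads (1.53), and that near Btbd35f1 (1.14). The loci near Rhbdd2 (1.10), downstream of Cmip with 7 and 13 reads (1.05) and near Fgfr4 (1.03) were also past 2-fold. RefSeq places the whole of the Rtl1 locus, 2248 bases, inside Rtl1.

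**Figure D5:**
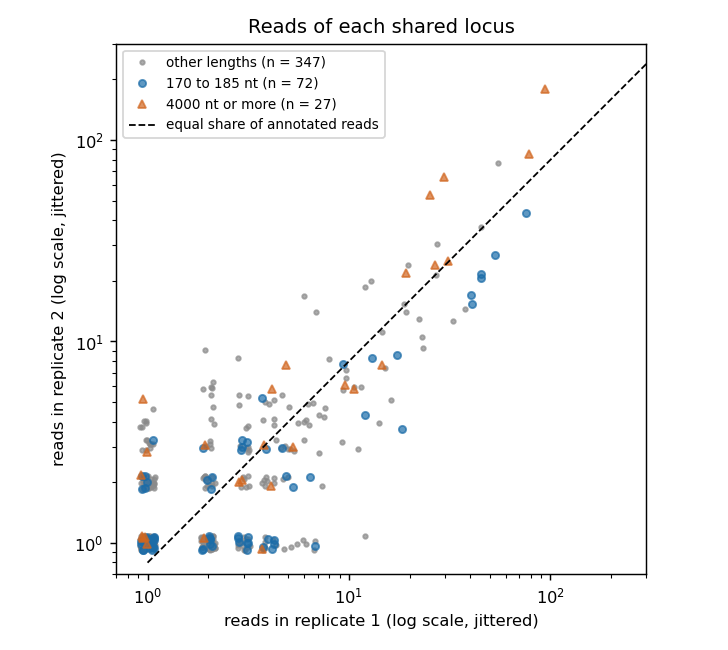
Reads of each of the 446 loci in replicate 1 and replicate 2 on log scales, with points jittered, coloured by the length of the most-read model, and a dashed line at an equal share of the reads on annotated genes. The 72 loci of 170 to 185 nt lie mostly at or below the line where reads are many, and the 4 most-read loci of 4000 nt or more lie above it.

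The values just outside the choice show where it cuts. Of the 2233 loci read in 1 library 1965 (88.0%) had a single read, 24 had 5 or more and 4 had 20 or more. The highest was at chr11:20334834-20335012, a 179-nt single-exon locus with 176 and 0 reads, which touches the 3′ end of the pseudogene Gm12033 on the same strand. Gm12033 itself had 137 reads in replicate 1 and 251 in replicate 2. At the 3′ end of Srd5a2, a steroid 5α-reductase gene, a locus had 0 and 80 reads, while replicate 1 had 119 reads on a single-exon model over the same stretch that was assigned to Srd5a2. The locus at chr11:100459056-100461670 had 74 and 0 reads, and replicate 2 had 35 reads there under a new gene of another class. The fourth, at chr17:87040155-87045082, had 26 and 0 reads and up to 4 exons. In all, 39 of the 2233 loci (1.747%) had reads of the other library on a single-exon model of another gene that shared at least 50% of both extents. These loci were left outside, since the rule counts reads of new intergenic genes only.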

How the data were processed

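The deposited tables give raw read counts per transcript model for each library, with exon number and length, and the authors' models stand in GTF files written by TALON, per the file headers. Reads were aligned to mm10 and annotated against GENCODE M21, per the deposited notes, and the aligner and versions are not stated there. Each library was annotated separately, and counts were used as deposited. Spike-in sequences were left out of totals.

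New genes holding a model of class Intergenic were joined where their extents overlapped by at least 1 base on the same strand. Neighbours were taken from GENCODE M21, because the deposited bounds of 28.96% of annotated genes differ from it. Levels are CPM of reads on annotated genes. Ratios used TMM scaling (edgeR 4.0.16) with 1 CPM added before log2, with DESeq2 1.42.0 size factors and library totals as alternatives. Fisher's exact tests used scipy 1.17.1 under Python 3.11.15, with figures drawn in matplotlib 3.10.9. Merging, neighbour assignment and the spliced-read test were tested on simulated data.

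Loci named are the 12 of highest mean CPM, those with most exons, longest models, nearest or farthest neighbours or widest ratios, the most-read of each orientation, and those beside adrenal genes. Loci in printed windows and loci with RefSeq protein-coding names were picked after their values were seen. The loci and lists were chosen with earlier results of these data known. A length class of 170 to 185 nt was set after the lengths were seen. Alternatives covered read minimum, merging rule, neighbours, extents, scaling and leaving out a library.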

Additional observations from a re-analysis of the deposited data

How the results depend on the processing

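Read depth set the number of loci, with 149 at 2 or more reads in each library and 50 at 5 or more. Requiring 2 reads raised the multi-exon share to 28.86%, the median length to 1102 nt and the median distance to 2212 bp. With 5 reads the median length was 1624 nt, the median distance 3115 bp, and upstream, divergent and convergent loci made up 24%, 18% and 14%, with 0 overlapping a gene. Models of 1 library alone, over the same loci, gave a median length from 522.5 nt (without replicate 2) to 642 nt (without replicate 1) and a median distance from 1962 to 2239 bp. Against protein-coding genes only, the median distance was 4267 bp, with 18.61% divergent and 20.18% in contact. With the deposited bounds of annotated genes, an alternative added after seeing the data, 17.49% were in contact and 8.296% overlapped. Past 2-fold between the libraries, DESeq2 size factors gave 8 loci higher in replicate 1 and 3 higher in replicate 2. With no minimum of reads 62 loci were past 2-fold, 31 in each direction. The spliced-read test at 10 reads called 0 of 7 loci and 12 of 5821 features. Another 39 values of summary results kept within their bounds and no value changed sign. Checks of polyadenylation signals and A-rich stretches were not run. No paired analysis was possible because the series has 1 group.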
